A study of Homo sapiens with 10 samples.

Results

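The interferon-stimulated antiviral genes described here are 45 genes picked by name, as known interferon-stimulated genes, from the 62750 gene IDs of a count table of 12Z cells. The list was chosen with earlier results of these data known. The shares of it that were called, set beside those of all genes, are therefore a description. All 45 passed the filter on low counts and were among the 15740 genes tested. 12Z is an established, immortalized line of human epithelial cells derived from peritoneal endometriosis. Every culture was starved overnight in medium with 2% charcoal-stripped serum, pretreated for 30 min with DMSO or an inhibitor, and kept for 6 h with or without 10 ng/ml of the inflammatory cytokine IL1β. The 5 groups held 2 libraries each (n = 2). They were vehicle (DMSO and no IL1β), IL1β (with DMSO), IL1β with 1 µM CDD-2728, IL1β with 10 µM CDD-2728, and IL1β with 1 µM CDD-3013. Both compounds are described as inhibitors of JNK, a stress-activated kinase of the MAP kinase family. No group received an inhibitor without IL1β, and 1 cell line was used.

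Interferon-stimulated genes are best known as the transcriptional answer to type I and type III interferons. These ligands bind their receptors, the receptor-bound kinases JAK1 and TYK2 activate transcription factors in the cytoplasm, and these enter the nucleus together with IRF9. There the complex binds a DNA motif called the interferon-stimulated response element (ISRE), which several IRF proteins also bind. The products act at many steps of a viral life cycle: they sense or bind foreign RNA, block entry and exit at membranes, deplete nucleotides, halt translation and modify proteins with the ubiquitin-like ISG15. In the endometrium, genes of this kind are known to respond to early pregnancy as well as to infection.

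The ISRE was looked for in the RefSeq promoter table of the GRCh38.p14 build, which gives 250 bases before and 50 after each gene's start. It held 38 of the 45 genes, and IFIT2, MX2, OAS2, OASL, USP18, IFITM2 and TRIM22 were not matched. The sequences below show promoters of genes called lower with 10 µM CDD-2728 (IFIT1, IFI44L, EPSTI1, SAMD9 and MX1). Promoters of genes called higher there (HERC5 and UBE2L6) are shown beside them. They are printed 5′ to 3′ on the gene's own strand. Capitals mark the ISRE core, searched as GAAANNGAA on both strands, so that a match on the other strand is printed as the reverse complement of those letters. For the first 6 the 250 bases before the start are shown, at chr10:89392373-89392622 (plus strand), chr1:78620198-78620447 (plus strand), chr13:42992242-42992491 (minus strand), chr7:93117980-93118229 (minus strand), chr4:88456869-88457118 (plus strand) and chr11:57567936-57568185 (minus strand). For MX1 a 30-base stretch just after the start is shown, at chr21:41420562-41420591 (plus strand).
IFIT1: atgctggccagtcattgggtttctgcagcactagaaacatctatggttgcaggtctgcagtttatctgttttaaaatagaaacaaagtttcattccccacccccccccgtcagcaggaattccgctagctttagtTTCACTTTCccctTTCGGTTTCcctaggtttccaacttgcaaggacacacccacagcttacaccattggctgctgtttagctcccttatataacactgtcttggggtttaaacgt
IFI44L: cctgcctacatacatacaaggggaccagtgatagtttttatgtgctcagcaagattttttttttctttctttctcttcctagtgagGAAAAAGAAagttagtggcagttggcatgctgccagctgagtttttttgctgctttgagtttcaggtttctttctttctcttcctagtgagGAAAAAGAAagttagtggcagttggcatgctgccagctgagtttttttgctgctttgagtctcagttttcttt
EPSTI1: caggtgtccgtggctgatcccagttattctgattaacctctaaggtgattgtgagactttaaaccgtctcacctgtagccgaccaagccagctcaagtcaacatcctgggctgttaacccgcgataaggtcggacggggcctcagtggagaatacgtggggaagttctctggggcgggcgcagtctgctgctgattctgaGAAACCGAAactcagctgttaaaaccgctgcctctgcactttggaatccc
SAMD9: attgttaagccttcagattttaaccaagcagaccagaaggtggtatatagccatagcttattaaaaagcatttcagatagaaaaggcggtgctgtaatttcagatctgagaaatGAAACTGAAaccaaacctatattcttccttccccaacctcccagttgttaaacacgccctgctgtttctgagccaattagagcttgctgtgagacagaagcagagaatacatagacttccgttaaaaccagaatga
HERC5: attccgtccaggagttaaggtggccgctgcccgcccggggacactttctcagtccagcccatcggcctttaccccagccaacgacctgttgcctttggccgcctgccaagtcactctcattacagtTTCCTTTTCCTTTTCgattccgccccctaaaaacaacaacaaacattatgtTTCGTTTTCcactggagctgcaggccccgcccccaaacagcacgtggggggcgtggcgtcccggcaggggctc
UBE2L6: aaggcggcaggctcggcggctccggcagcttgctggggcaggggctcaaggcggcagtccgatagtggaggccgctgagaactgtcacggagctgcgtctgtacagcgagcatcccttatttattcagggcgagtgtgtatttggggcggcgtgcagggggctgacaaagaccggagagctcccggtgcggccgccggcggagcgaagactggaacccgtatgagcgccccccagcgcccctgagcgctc
MX1: cagaaatGAAACCGAAACTGAAttgtccgg

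The first match lay at position -115 from the start in IFIT1, -164 in IFI44L, -50 in EPSTI1, -136 in SAMD9 and -124 in HERC5. In MX1 it began 11 bases after the start and overlapped a second match. UBE2L6 held none in its window. Of the 38 promoters, 28 (73.7%) held at least 1 ISRE core, against 8.11% of all 35116 promoters of the same length in the table. The AP-1 site, TGAGTCA or its reverse complement TGACTCA, the element bound by the JNK target JUN, was found in 1 (2.63%, against 4.95%), the exonuclease gene ISG20. The NF-κB core GGGANTTTC, on either strand, was found in 3 (7.89%, against 1.28%), OAS3, IFIH1 and DDX60. Each motif was counted on its own, so matches of different motifs may overlap, and a match is a stretch of letters only.

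Levels are in CPM, counts scaled to library size with TMM factors, and are read here as relative levels within a library. Libraries held 16312600 to 19479416 counts. A gene was called where the edgeR quasi-likelihood test gave a Benjamini-Hochberg adjusted p under 0.05 over all 15740 genes, and log2 changes carry ± SE. Nothing in the labels says that the 2 libraries of a group came from separate cultures, so p-values measure only the spread between these samples, which may be technical. The epithelial keratin KRT8 stood at 5419 to 9479 CPM. The epithelial adhesion genes EPCAM (0 to 0.239 CPM) and CDH1 (6.77 to 12.7 CPM) were low. Of the other epithelial markers, KRT18 (1738 to 2671 CPM) and KRT19 (862.9 to 1529 CPM) were high. KRT7 (5.285 to 13.47 CPM) and MUC1 (8.585 to 15.2 CPM) were low. Mesothelial markers were also present. LRRN4 was at 317.1 to 580.2 CPM, CALB2 at 128.4 to 208.6, MSLN at 60.2 to 87.93 and UPK3B at 18.34 to 31.38. Of 8 immune markers, CD3E and LILRA4 had no counts in any library and the pan-leukocyte marker PTPRC stayed at or under 0.358 CPM. The summed immune list was 16.4 to 18.3 CPM in vehicle, 20.4 to 22.7 under IL1β, 21.2 to 27.8 with 1 µM CDD-2728, 18.2 to 21.5 with 10 µM and 23.9 to 27.96 with CDD-3013, with 3 to 5 of its genes at 0 in both libraries of a group, and CD14 alone made up 15.3 to 24.4 CPM. ITGAM, the myeloid integrin chain of that list, was at 0.739 and 0.920 CPM in vehicle, 4.20 and 4.58 under IL1β, 3.21 and 3.64 with 1 µM CDD-2728, 0.961 and 1.31 with 10 µM and 3.09 and 4.30 with CDD-3013. It rose with IL1β (log2 2.40 ± 0.32, adjusted p = 7.13e-07 in edgeR), fell at 10 µM CDD-2728 (-1.95 ± 0.31, adjusted p = 1.54e-05) and from 1 to 10 µM (-1.59 ± 0.32), and was not called at 1 µM of either compound. The epithelial list summed to 8127 to 10660 CPM in the first 4 groups and to 12270 and 13480 with CDD-3013. The part of any of these lists, ITGAM included, in the results was not tested. In GENCODE 29 exons of IFIT2, MX1, OAS1, EIF2AK2, ISG15, IFITM3, SP110, XAF1, RSAD2, CMPK2, PARP9 and DTX3L overlap a gene on the opposite strand. Their counts are uncertain to that extent where strand was not used. On the same strand, IFITM1 and IFITM2 overlap each other, TRIM22 overlaps OR56B1 and IFIT2 an annotated transcript. Use of strand cannot resolve these.

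IL1β raised most of these genes. Of the 45, 38 were called higher and 0 lower, where 17.6% of all tested genes were called higher and 15% lower. At an unadjusted p under 0.05 the counts were also 38 and 0, beside 6513 of all 15740 genes in either direction. They were the same with DESeq2, which called 16.4% of all genes higher and 10.9% lower. The median log2 change of the 45 was 0.83, with a range of -0.11 to 5.19, while the median over all tested genes was -0.01. At least a 2-fold rise was seen for 20 genes. The 7 that were not called were IFITM1, IFITM2, IFITM3, EIF2AK2, IFI27, RTP4 and LGALS3BP, and these include the genes with the highest levels per kb of transcript in vehicle cells: IFITM3 at 198 CPM per kb and LGALS3BP at 169.6 CPM per kb. As in any bulk sample, more responding cells and more RNA per cell cannot be told apart.

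With 10 µM CDD-2728 added to IL1β, 38 genes were called higher than vehicle and 0 lower, where 18.2% and 16.4% of all tested genes were called. These were not the same 38 as with IL1β alone. The median log2 difference was 0.73. DESeq2 gave the same counts, beside 16.2% and 12.5% of all genes. At an unadjusted p under 0.05 edgeR gave 39 and 1, beside 6792 of all 15740 genes in either direction. EIF2AK2, USP18, SAMD9, PARP9, SP110, IFI44 and RTP4 were the 7 not called in that comparison. Of these, USP18, SAMD9, PARP9, SP110 and IFI44 had been called higher with IL1β alone. IFITM1, IFITM2, IFITM3, IFI27 and LGALS3BP were called here and not with IL1β alone.

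**Figure D1:**
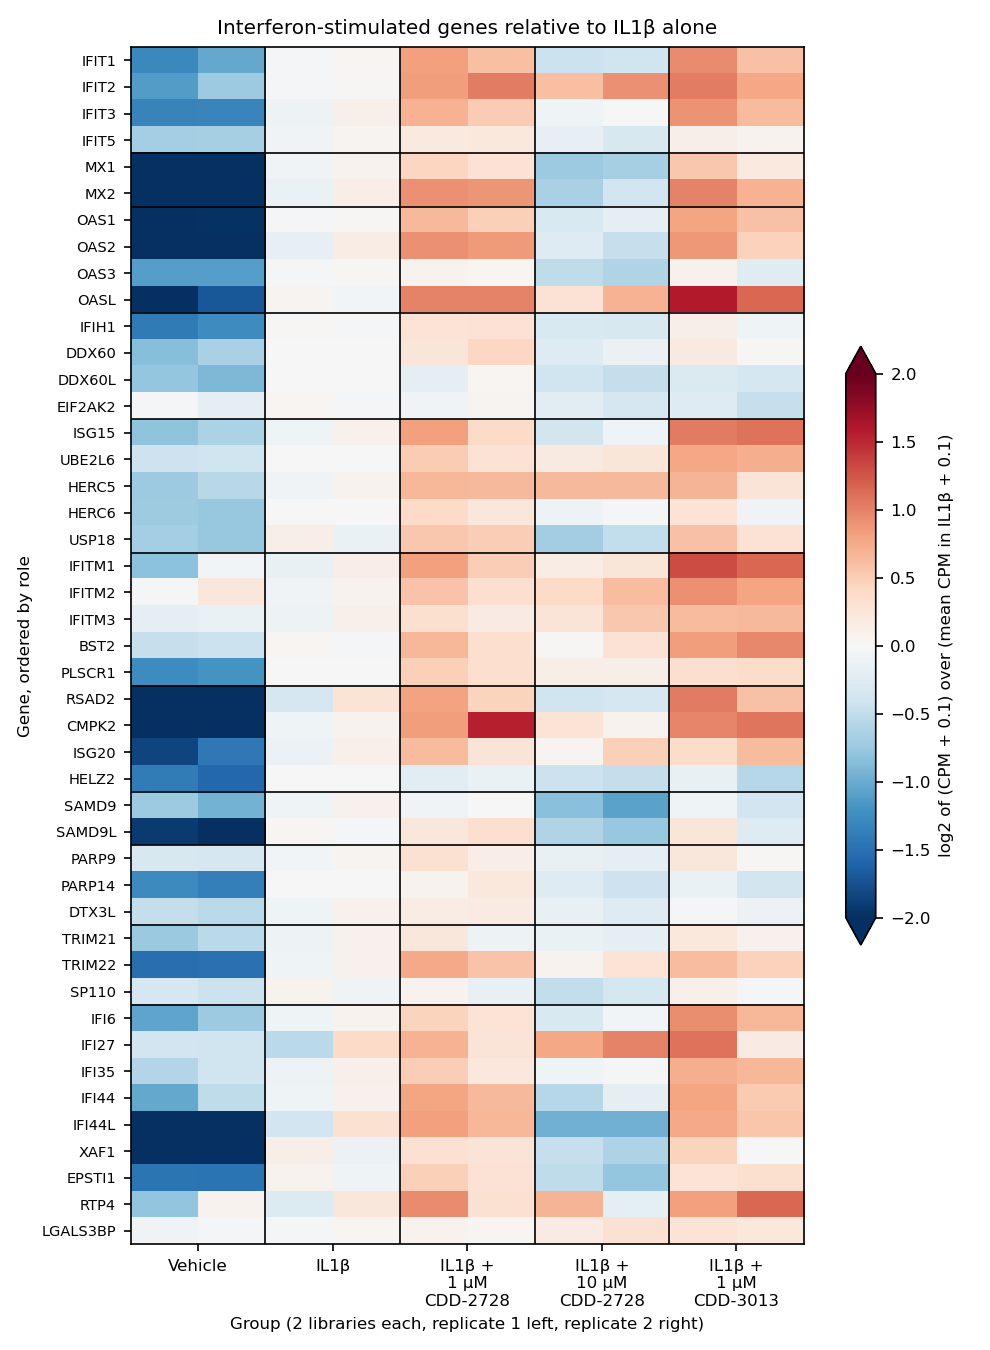
Levels of the 45 genes in all 10 libraries, as log2 of CPM plus 0.1 over the mean of the 2 IL1β libraries (colour; white is no difference, red higher, blue lower). Rows are genes grouped by role and each group has 2 columns. Vehicle columns are blue for nearly all genes, the 1 µM columns are mostly red, and the 10 µM CDD-2728 columns hold both colours.

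The 3 inhibitor arms were each compared with the same 2 IL1β libraries, so their differences are not independent of one another. With 1 µM CDD-2728, 20 of the 45 were called higher than with IL1β alone and 0 lower, where 2.03% of all genes were called higher and 2.57% lower. Their median log2 change was 0.40 (range -0.19 to 1.29), and all genes had a median of -0.00204. Both libraries lay above both IL1β libraries for 37 of the 45, and for 23.4% of all tested genes. At an unadjusted p under 0.05 edgeR gave 31 higher and 0 lower, beside 2850 of all 15740 genes in either direction. DESeq2 called 19 and 0, beside 1.93% and 2.1% of all genes. The number called varied with the libraries used, as did the share of all genes called. Of the 45, 8 were called higher without IL1β replicate 1 (0.577% of all genes), 10 without CDD-2728 1 µM replicate 1 (1.01%), 16 without IL1β replicate 2 (0.983%) and 22 without CDD-2728 1 µM replicate 2 (5.12%). The 2 IL1β libraries differed over these genes, with replicate 2 the higher for 32 of 45 and a median log2 difference of -0.13 between replicate 1 and replicate 2, while in the 1 µM CDD-2728 group replicate 1 was the higher for 32 (median 0.14).

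With 10 µM CDD-2728, calls went in both directions, as they did over all genes. Of the 45, 7 were called higher than with IL1β alone and 16 lower, where 15.6% of all genes were called higher and 15.9% lower. The share of genes called higher is thus that of all genes (15.56%), and the share called lower is 35.56%. The median log2 change was -0.20 (range -0.98 to 0.96), beside 0.00641 for all genes. The 16 that fell were IFIT1, MX1, MX2, OAS3, IFIH1, DDX60L, EIF2AK2, USP18, HELZ2, SAMD9, SAMD9L, PARP14, SP110, IFI44L, XAF1 and EPSTI1. The 7 that rose were IFIT2, OASL, UBE2L6, HERC5, IFITM2, IFITM3 and LGALS3BP. The number called lower was 10 without CDD-2728 10 µM replicate 1 (10.8% of all genes). The number called higher was 4 without IL1β replicate 1 (9.41%) and 4 without CDD-2728 10 µM replicate 2 (10.4%).

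The doses were also compared with each other, which uses the same inhibitor libraries but not those of IL1β alone. From 1 to 10 µM CDD-2728, 33 of the 45 were called lower and 0 higher, where 13.8% and 13.3% of all genes were called. The median log2 difference was -0.48 (range -1.75 to 0.41), beside 0.011 for all genes, and 10 genes differed at least 2-fold. At an unadjusted p under 0.05 edgeR gave 36 lower and 1 higher, beside 6006 of all 15740 genes in either direction. DESeq2 called 32 lower and 0 higher, beside 12.2% and 9.59% of all genes. Leaving out 1 library at a time gave 25 to 33 lower, with 8.08% to 13.2% of all genes called lower.

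With 1 µM CDD-3013, 27 were called higher than with IL1β alone and 4 lower, where 19% of all genes were called higher and 17.3% lower. The median log2 change was 0.51 (range -0.35 to 1.40), beside -0.00721 for all genes. The 4 that fell were DDX60L, EIF2AK2, HELZ2 and PARP14. Their number was 1 without IL1β replicate 1, 1 without IL1β replicate 2 and 0 without CDD-3013 replicate 2, where 9.63%, 11.8% and 10.6% of all genes were called lower. Replicate 1 of the CDD-3013 group was higher than replicate 2 for 37 of the 45 genes (median log2 difference 0.21).

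**Figure D2:**
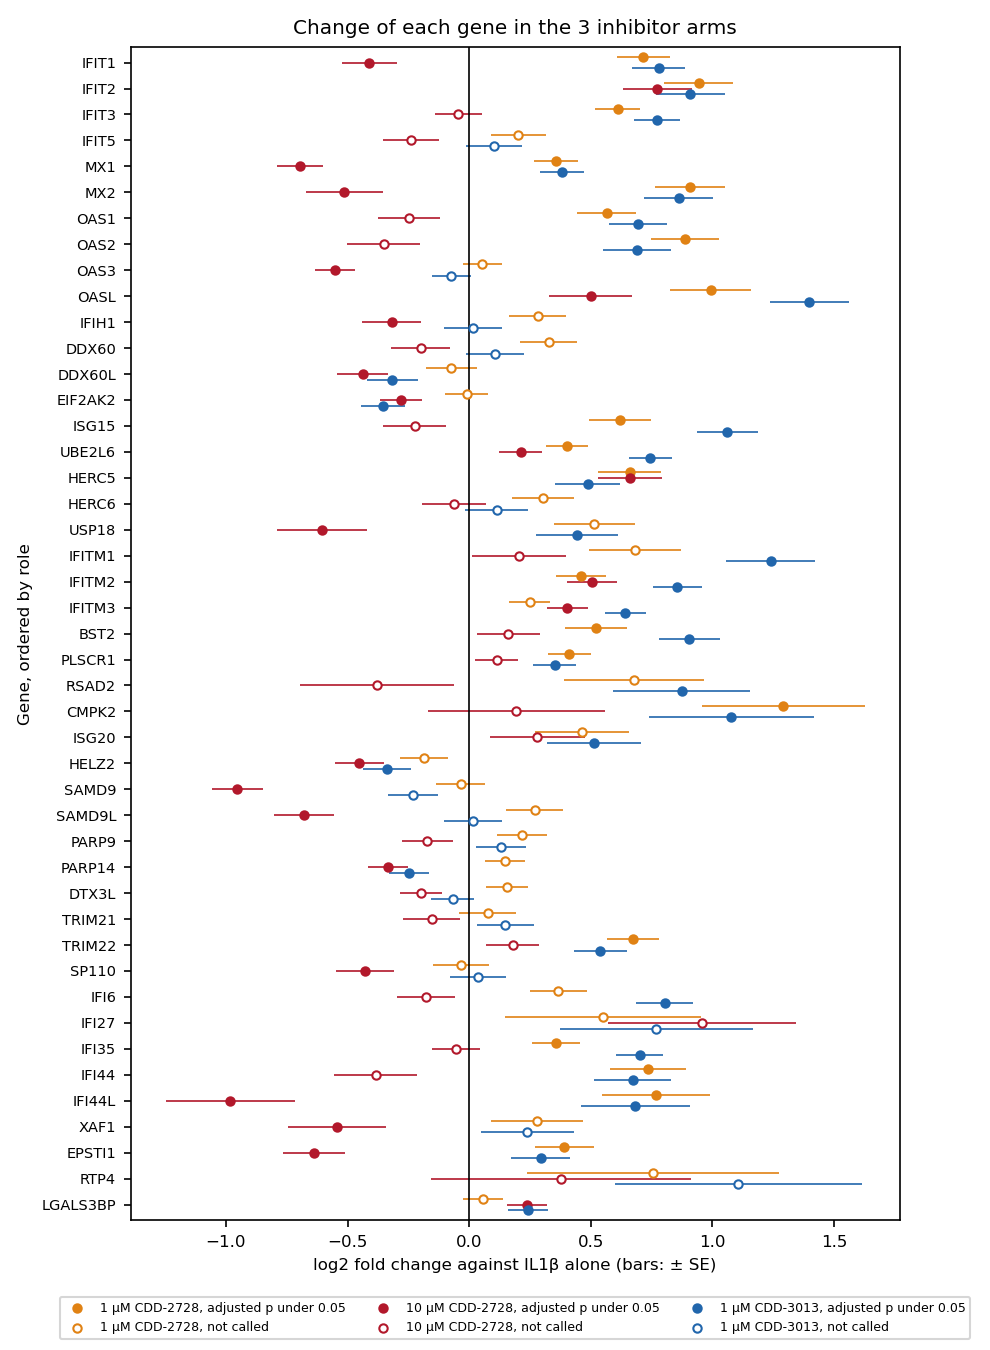
Log2 fold change of each of the 45 genes (rows, by role) against IL1β alone, with bars of ± SE, for 1 µM CDD-2728 (orange), 10 µM CDD-2728 (red) and 1 µM CDD-3013 (blue); filled points have an adjusted p under 0.05. Orange and blue points lie mostly right of 0 and red points mostly left of it, with IFIT2, OASL, HERC5 and IFITM2 among those right of 0 in all 3 arms.

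The IFIT proteins bind RNA that lacks the cap marks of host messages, and all 4 genes measured rose with IL1β (median log2 change 1.04). IFIT1 stood at 17.7 and 21.3 CPM in the vehicle libraries, 42.02 and 44.5 under IL1β, 76.2 and 65.7 with 1 µM CDD-2728, 32.2 and 32.8 with 10 µM and 83.02 and 65.2 with CDD-3013. The 10 µM libraries lay below both IL1β libraries and the 1 µM libraries of either compound above them. Its log2 change was 1.15 ± 0.12 with IL1β, 0.72 ± 0.11 at 1 µM CDD-2728 (edgeR, adjusted p = 0.000243) and -0.41 ± 0.11 at 10 µM (adjusted p = 0.0082). The fall at 10 µM was not called without IL1β replicate 2 (adjusted p = 0.0731 in edgeR) or without CDD-2728 10 µM replicate 1 (0.0714) or 2 (0.0516).

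IFIT2, which also binds RNA and shares 7.77% of its 75-base words with an overlapping annotated transcript, was called higher in all 3 inhibitor arms. It was measured at 5.63 and 7.41 CPM in vehicle, 12.1 and 12.6 with IL1β alone, 22.1 and 25.3 at 1 µM CDD-2728, 18.8 and 23.4 at 10 µM and 25.1 and 21.1 under CDD-3013. All inhibitor libraries lay above both IL1β libraries, and the log2 change was 0.94 ± 0.14 at 1 µM and 0.77 ± 0.14 at 10 µM CDD-2728 (edgeR, adjusted p = 0.000207). The difference between the doses was -0.17 ± 0.13 and was not called (adjusted p = 0.368). IFIT3, a partner that stabilises IFIT1 on RNA, was at 21.5 and 21.8 CPM without IL1β, 50.6 and 58.03 with it, 87.9 and 77.6 when 1 µM CDD-2728 was added, 51.2 and 54.04 when 10 µM was added and 101 and 84.1 when CDD-3013 was added. It rose at 1 µM of both compounds (log2 0.61 and 0.77), and its 10 µM levels lay between those of the IL1β libraries (log2 -0.04, adjusted p = 0.766). IFIT5 rose with IL1β by 0.68 ± 0.12 and was called in no inhibitor arm, but differed between the doses by -0.44 ± 0.11.

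**Figure D3:**
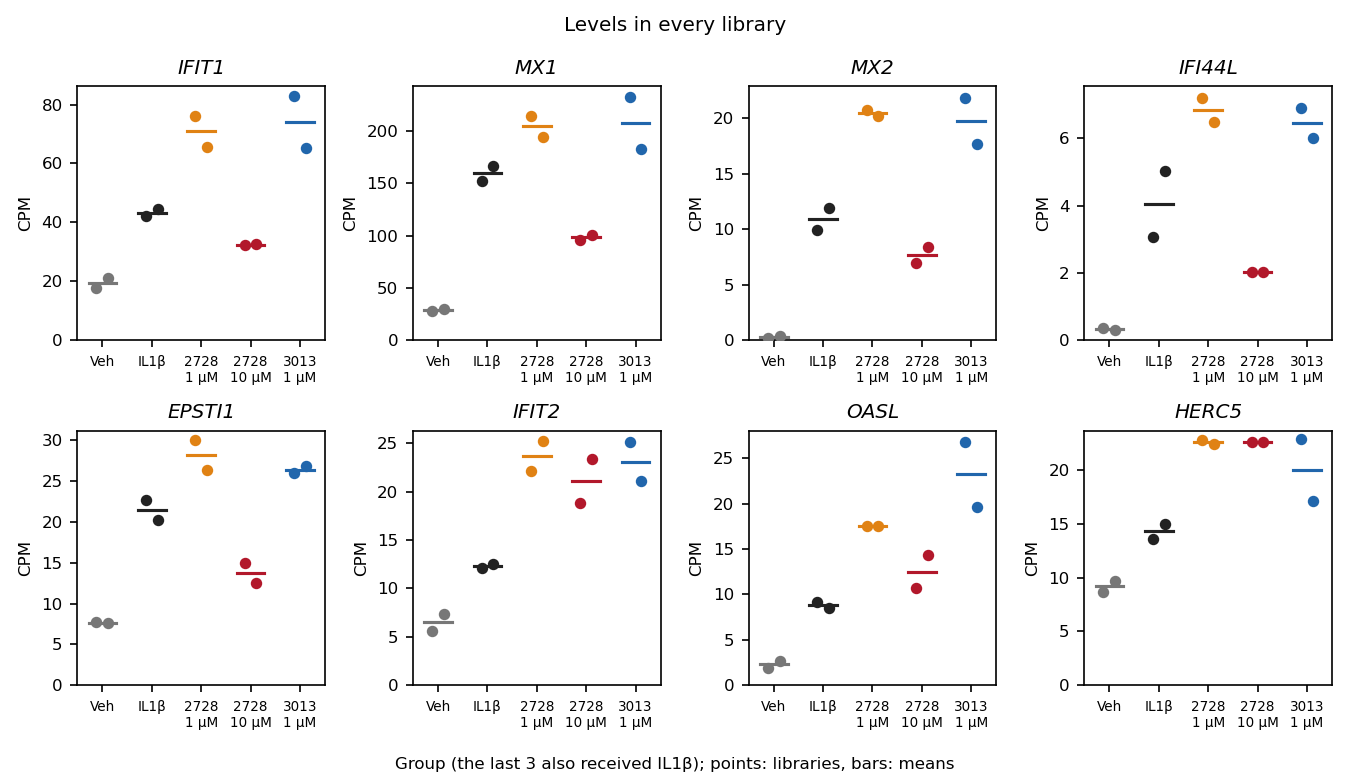
Level in CPM (vertical axes, starting at 0) of 8 of the genes in every library; points are libraries and bars are means of 2. IFIT1, MX1, MX2, IFI44L and EPSTI1 are above IL1β alone at 1 µM CDD-2728 and below it at 10 µM, whereas IFIT2, OASL and HERC5 are above it at both doses.

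MX1 and MX2 encode dynamin-like GTPases that trap viral nucleocapsids and capsids. MX2 had the largest log2 change of the 45 under IL1β, 5.19 ± 0.44, from 12 counts in the 2 vehicle libraries to 367 in the IL1β libraries. The ratio of those sums, scaled to library size, was 37.3 with a 95% exact counting interval of 21.1 to 72.9. MX2 was at 0.231 and 0.358 CPM in the vehicle libraries, 9.90 and 11.9 under IL1β, 20.7 and 20.2 with 1 µM CDD-2728, 6.94 and 8.37 with 10 µM and 21.8 and 17.7 with CDD-3013. Its log2 change was 0.91 ± 0.14 at 1 µM CDD-2728 (edgeR, adjusted p = 0.000254) and -0.51 ± 0.16 at 10 µM (adjusted p = 0.0158), and the latter call was lost without IL1β replicate 2 or without CDD-2728 10 µM replicate 1 (adjusted p = 0.186 in each). MX1 was read at 27.6 and 30.1 CPM in vehicle, 152 and 167 with IL1β alone, 214 and 194 at 1 µM CDD-2728, 96.2 and 101 at 10 µM and 233 and 183 under CDD-3013. It rose by 2.47 ± 0.10 with IL1β and by 0.36 ± 0.09 at 1 µM CDD-2728 (edgeR, adjusted p = 0.0266), and fell at 10 µM by 0.70 ± 0.09 on the log2 scale (adjusted p = 1.1e-05). The rise at 1 µM was not called without IL1β replicate 1 (adjusted p = 0.31), IL1β replicate 2 (0.0631) or CDD-2728 1 µM replicate 1 (0.239). Neither MX gene overlapped between the 10 µM and the 1 µM libraries, and their log2 differences between the doses were -1.05 ± 0.09 and -1.42 ± 0.15.

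The oligoadenylate synthetases OAS1, OAS2 and OAS3 make the second messenger that switches on RNase L, and OASL is a relative without that activity that aids RNA sensing. All 4 rose at least 2-fold with IL1β. OAS2 was at 0.646 and 1.02 CPM in the vehicle libraries, 14.2 and 17.8 under IL1β, 30.2 and 28.9 with 1 µM CDD-2728, 13.3 and 11.7 with 10 µM and 29.2 and 22.2 with CDD-3013. Its 10 µM libraries lay below both IL1β libraries, but the log2 change of -0.35 ± 0.15 was not called (edgeR, adjusted p = 0.0783), while that between the doses was -1.24 ± 0.14 (adjusted p = 1.3e-06). OASL was found at 1.94 and 2.66 CPM in vehicle, 9.12 and 8.48 with IL1β alone, 17.5 and 17.5 at 1 µM CDD-2728, 10.7 and 14.3 at 10 µM and 26.7 and 19.7 under CDD-3013. It rose in all 3 arms, by 0.99 ± 0.17 and 0.50 ± 0.17 at the 2 doses of CDD-2728 and by 1.40 ± 0.16 with CDD-3013, the largest change of the 45 in that arm. The 10 µM level of OASL was nevertheless below that at 1 µM (log2 -0.49 ± 0.16, adjusted p = 0.0235 in edgeR).

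OAS1 had levels of 3.69 and 4.75 CPM without IL1β, 18.6 and 19.2 with it, 29.6 and 26.2 when 1 µM CDD-2728 was added, 15.3 and 16.6 when 10 µM was added and 32.8 and 28.3 when CDD-3013 was added. It rose at 1 µM of CDD-2728 and of CDD-3013 (log2 0.57 and 0.69) and was not called at 10 µM (log2 -0.25, adjusted p = 0.138 in edgeR). OAS3, the longest member of the family, was at 112 and 112 CPM in the vehicle libraries, 236 and 246 under IL1β, 251 and 248 with 1 µM CDD-2728, 170.1 and 158 with 10 µM and 254.8 and 202 with CDD-3013. It was called only at 10 µM among the inhibitor arms, with a log2 change of -0.55 ± 0.08 (edgeR, adjusted p = 2e-05), and both 10 µM libraries lay below all other libraries with IL1β.

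Among the sensors of double-stranded RNA, IFIH1 encodes MDA5, DDX60 is a helicase that aids RNA sensing, DDX60L is its relative, and EIF2AK2 encodes PKR, the kinase that stops translation. The first 3 rose with IL1β (log2 1.34, 0.76 and 0.83), and EIF2AK2 did not pass the test (log2 0.10 ± 0.09). None of the 4 was called at 1 µM CDD-2728. IFIH1, at 9.0 and 9.97 CPM in vehicle, 24.4 and 23.7 with IL1β alone, 28.97 and 29.5 at 1 µM CDD-2728, 19.4 and 19.2 at 10 µM and 26.1 and 22.5 under CDD-3013, fell at 10 µM by 0.32 on the log2 scale (edgeR, adjusted p = 0.0272). DDX60L and EIF2AK2 were the genes of this role that fell both at 10 µM CDD-2728 (log2 -0.44 and -0.28) and with CDD-3013 (log2 -0.32 and -0.35). From 1 to 10 µM CDD-2728 all 4 fell, by log2 differences of -0.27 to -0.60.

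ISG15 is joined to other proteins by the conjugating enzyme UBE2L6 and the ligase HERC5, HERC6 is a relative of HERC5, and USP18 removes it and also restrains the interferon receptor. All 5 rose with IL1β, with log2 changes of 0.41 to 0.74. ISG15 was at 33.5 and 38.03 CPM in the vehicle libraries, 55.5 and 62.4 under IL1β, 104 and 77.03 with 1 µM CDD-2728, 45.5 and 55.5 with 10 µM and 121 and 125 with CDD-3013. It rose at 1 µM CDD-2728 by 0.62 ± 0.13 (edgeR, adjusted p = 0.0112) and with CDD-3013 by 1.06 ± 0.12 (adjusted p = 2.51e-05). At 10 µM its levels were at or below those of IL1β alone (log2 -0.22 ± 0.13, not called), and the doses differed by -0.84 ± 0.13.

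Of the enzymes that attach ISG15, HERC5 and UBE2L6 were called higher at both doses of CDD-2728. HERC5, the main ligase in human cells, was at 8.63 and 9.71 CPM without IL1β, 13.6 and 15.01 with it, 22.8 and 22.4 when 1 µM CDD-2728 was added, 22.6 and 22.6 when 10 µM was added and 22.9 and 17.1 when CDD-3013 was added. The 4 libraries with CDD-2728 stood between 22.4 and 22.8 CPM, all above the IL1β libraries, and the log2 change against IL1β was 0.66 ± 0.13 at 1 µM and 0.66 ± 0.13 at 10 µM (edgeR, adjusted p = 0.000411). UBE2L6 was at 53.5 and 53.7 CPM in vehicle, 70.8 and 71.3 with IL1β alone, 101 and 87.04 at 1 µM CDD-2728, 80.1 and 84.5 at 10 µM and 121 and 117 under CDD-3013, and rose at both doses (log2 0.40 and 0.21) and with CDD-3013 (log2 0.74). HERC6 was called in none of the arms against IL1β. USP18, at 4.80 and 4.50 CPM in the vehicle libraries, 8.39 and 7.03 under IL1β, 11.2 and 10.9 with 1 µM CDD-2728, 4.75 and 5.44 with 10 µM and 11.6 and 9.43 with CDD-3013, did not pass the test at 1 µM CDD-2728 (log2 0.51 ± 0.17, adjusted p = 0.0693 in edgeR) and fell at 10 µM (log2 -0.60 ± 0.18, adjusted p = 0.0108) to near the vehicle level. The longest USP18 transcript shares 18.3% of its 75-base words with the near copy USP41, so its counts are uncertain where reads could fall on either.

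At membranes, IFITM1, IFITM2 and IFITM3 block the fusion of incoming virus, BST2 (tetherin) holds budding particles at the surface, and PLSCR1 is a phospholipid scramblase. With IL1β only BST2 and PLSCR1 of the 5 were called, with log2 changes of 0.45 ± 0.13 and 1.23 ± 0.09. All 5 rose with CDD-3013. IFITM1 was at 6.79 and 11.7 CPM in the vehicle libraries, 10.9 and 13.2 under IL1β, 21.5 and 17.1 with 1 µM CDD-2728, 13.4 and 14.3 with 10 µM and 29.9 and 26.9 with CDD-3013, a log2 change of 1.24 ± 0.18 with CDD-3013 (edgeR, adjusted p = 8.71e-05). IFITM2 was at 48.2 and 57.1 CPM in vehicle, 46.5 and 51.3 with IL1β alone, 72.5 and 61.6 at 1 µM CDD-2728, 63.7 and 75.2 at 10 µM and 91.9 and 85.01 under CDD-3013. IFITM3 was at 262 and 272 CPM without IL1β, 276 and 319.6 with it, 374 and 334 when 1 µM CDD-2728 was added, 357 and 431 when 10 µM was added and 464 and 465 when CDD-3013 was added. All 6 inhibitor libraries lay above both IL1β libraries for each of these genes. Both rose at 10 µM CDD-2728 (log2 0.51 and 0.40), and at 1 µM IFITM2 was called (log2 0.46) and IFITM3 was not (log2 0.25, adjusted p = 0.107 in edgeR). The IFITM transcripts resemble one another. Of the 75-base words of IFITM1, IFITM2 and IFITM3, 39.7%, 7.21% and 10.8% were also found in another gene. Annotated exons of IFITM1 and IFITM2 overlap on the same strand as well. How reads were split between the 3 genes is therefore uncertain. BST2 was at 11.1 and 11.4 CPM in the vehicle libraries, 15.8 and 15.1 under IL1β, 24.6 and 19.6 with 1 µM CDD-2728, 15.8 and 18.8 with 10 µM and 27.6 and 30.2 with CDD-3013. It rose at 1 µM of both compounds (log2 0.52 and 0.90). PLSCR1 also rose at 1 µM of both (log2 0.41 and 0.35), and neither it nor BST2 was called at 10 µM CDD-2728.

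RSAD2 (viperin) makes a chain-terminating nucleotide, and CMPK2, its neighbour on the opposite strand, is a nucleotide kinase. Their annotated exons overlap, and since the counting's use of strand is not given in the sources used here, their reads may not be fully separable. RSAD2 was at 0.0461 and 0.153 CPM and CMPK2 at 0.231 and 0.102 CPM in the vehicle libraries. RSAD2 had 4 counts in those 2 libraries and 79 under IL1β, a scaled ratio of 24.1 with a 95% exact counting interval of 9.05 to 90.6. CMPK2 had 7 and 44 counts, a scaled ratio of 7.67 (3.43 to 20.2). These intervals cover counting error only. RSAD2 was at 1.85 and 2.89 CPM under IL1β, 4.23 and 3.27 with 1 µM CDD-2728, 1.76 and 1.85 with 10 µM and 4.99 and 3.60 with CDD-3013. CMPK2 was at 1.23 and 1.38, 2.42 and 4.01, 1.60 and 1.38 and 2.67 and 2.85 CPM in the same order. CMPK2 had the largest log2 change of the 45 at 1 µM CDD-2728, 1.29 ± 0.33 (edgeR, adjusted p = 0.0226), with both libraries above both IL1β libraries. The call was lost without CDD-2728 1 µM replicate 2 (log2 0.90, adjusted p = 0.161), IL1β replicate 1 (0.225) or IL1β replicate 2 (0.104). With CDD-3013 RSAD2 and CMPK2 both rose (log2 0.87 and 1.08), CMPK2 not without IL1β replicate 1 (adjusted p = 0.0967) or CDD-3013 replicate 2 (0.0628). Between the doses of CDD-2728 both fell, with log2 differences of -1.06 and -1.10.

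The exonuclease ISG20 was at 1.71 and 2.30 CPM in vehicle, 5.88 and 6.84 with IL1β alone, 9.87 and 7.60 at 1 µM CDD-2728, 6.62 and 8.85 at 10 µM and 8.26 and 9.87 under CDD-3013. It rose with IL1β by 1.67 ± 0.24 and with CDD-3013 by 0.51 ± 0.19 (edgeR, adjusted p = 0.041). HELZ2, a large helicase and nuclear receptor coactivator and 1 of the 5 with the highest level per kb under IL1β (40.0 CPM per kb), was at 182 and 162 CPM without IL1β, 484 and 482 with it, 411 and 438 when 1 µM CDD-2728 was added, 359 and 348 when 10 µM was added and 438 and 327 when CDD-3013 was added. It rose with IL1β by 1.49 ± 0.10, and fell with 10 µM CDD-2728 (-0.45 ± 0.10) and with CDD-3013 (-0.34 ± 0.10).

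SAMD9 and SAMD9L, neighbouring genes whose products curb viral protein synthesis, fell at the high dose and were not called at the low dose. SAMD9 was at 44.7 and 38.6 CPM in the vehicle libraries, 69.7 and 78.7 under IL1β, 70.5 and 74.4 with 1 µM CDD-2728, 41.3 and 35.1 with 10 µM and 69.7 and 56.7 with CDD-3013. The 10 µM libraries overlapped the vehicle libraries and lay below all other libraries with IL1β. The log2 change against IL1β was -0.95 ± 0.10 at 10 µM (edgeR, adjusted p = 5.78e-07) and -0.03 ± 0.10 at 1 µM (adjusted p = 0.902), and 10 µM did not differ from vehicle beyond the test (-0.12 ± 0.11, adjusted p = 0.409). SAMD9L was at 10.2 and 9.15 CPM in vehicle, 39.5 and 37.9 with IL1β alone, 45.1 and 48.2 at 1 µM CDD-2728, 25.5 and 22.8 at 10 µM and 45.8 and 32.4 under CDD-3013. It fell at 10 µM by 0.68 ± 0.12 on the log2 scale (edgeR, adjusted p = 0.000258) but was still called above vehicle there (log2 1.32 ± 0.14).

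PARP9 and DTX3L form a complex that couples ADP-ribosylation to ubiquitin, and PARP14 is an ADP-ribosyltransferase that works with them. All 3 rose with IL1β, by log2 0.33, 0.51 and 1.32. PARP9 and DTX3L start next to each other on opposite strands and their exons overlap, with the same limit on strand as above. PARP14 was at 74.95 and 69.9 CPM in the vehicle libraries, 181 and 182 under IL1β, 191 and 210.5 with 1 µM CDD-2728, 152 and 136 with 10 µM and 165 and 140.5 with CDD-3013. It fell at 10 µM CDD-2728 by 0.33 ± 0.08 on the log2 scale (edgeR, adjusted p = 0.00233) and with CDD-3013 by 0.25 ± 0.08 on the log2 scale (adjusted p = 0.0169). All 3 fell from 1 to 10 µM CDD-2728, by log2 differences of -0.35 to -0.48.

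TRIM21 is a cytosolic antibody receptor and ubiquitin ligase, TRIM22 a ligase that restricts several viruses, and SP110 a nuclear body protein. TRIM22 was at 9.55 and 9.71 CPM in the vehicle libraries, 25.8 and 29.1 under IL1β, 46.6 and 40.8 with 1 µM CDD-2728, 28.8 and 33.4 with 10 µM and 42.02 and 37.7 with CDD-3013. TRIM22 rose with IL1β by 1.51 ± 0.12, at 1 µM CDD-2728 by 0.67 ± 0.11 and with CDD-3013 by 0.54 ± 0.11. TRIM21 and SP110 rose with IL1β (log2 0.63 and 0.38) and were not called at 1 µM of either compound. SP110 fell at 10 µM CDD-2728 (log2 -0.43 ± 0.12), to levels not called different from vehicle (log2 -0.04).

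Of the 9 remaining genes, IFI44L, a gene of little known function that is widely used as an interferon marker, fell most at 10 µM CDD-2728. It was at 0.369 and 0.307 CPM in the vehicle libraries, 3.08 and 5.02 under IL1β, 7.21 and 6.49 with 1 µM CDD-2728, 2.03 and 2.03 with 10 µM and 6.89 and 6.01 with CDD-3013. The 10 µM libraries, with 38 and 34 counts, lay below both IL1β libraries, with 55 and 80. From vehicle (14 counts in all) to IL1β (135 counts) the scaled ratio was 11.8, with a 95% exact counting interval of 6.77 to 22.1. The log2 change was -0.98 ± 0.27 at 10 µM (edgeR, adjusted p = 0.00581) and 0.77 ± 0.22 at 1 µM (adjusted p = 0.0464). Without IL1β replicate 2 the change at 10 µM was -0.60 (adjusted p = 0.177), and without IL1β replicate 1 that at 1 µM was 0.45 (adjusted p = 0.535). The 1 µM call was also lost with DESeq2 (adjusted p = 0.0981) and without CDD-2728 1 µM replicate 1 (0.292). The difference between the doses, -1.75 ± 0.25 (edgeR, adjusted p = 1.42e-05), was the largest of the 45.

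EPSTI1, a stromal interaction gene induced by interferon, was at 7.71 and 7.62 CPM in vehicle, 22.7 and 20.3 with IL1β alone, 29.99 and 26.4 at 1 µM CDD-2728, 15.0 and 12.6 at 10 µM and 25.9 and 26.8 under CDD-3013. It rose at 1 µM CDD-2728 by 0.39 ± 0.12 (edgeR, adjusted p = 0.0466), a call near the threshold that was lost with DESeq2 (0.0728) and without IL1β replicate 1 (0.135), IL1β replicate 2 (0.331) or CDD-2728 1 µM replicate 1 (0.425). It fell at 10 µM by 0.64 ± 0.13 on the log2 scale (adjusted p = 0.000284). IFI44, the neighbour and relative of IFI44L, was at 5.49 and 7.87 CPM without IL1β, 10.6 and 11.9 with it, 19.7 and 17.8 when 1 µM CDD-2728 was added, 7.53 and 9.80 when 10 µM was added and 19.6 and 16.3 when CDD-3013 was added. It rose at 1 µM of both compounds (log2 0.73 and 0.67), was not called at 10 µM (log2 -0.38), and was not called above vehicle there (log2 0.38, adjusted p = 0.108 in edgeR).

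XAF1, a promoter of cell death that binds XIAP, was at 0.877 and 1.43 CPM in the vehicle libraries, 7.50 and 6.34 under IL1β, 8.57 and 8.28 with 1 µM CDD-2728, 5.02 and 4.48 with 10 µM and 9.45 and 6.89 with CDD-3013. Its level rose with IL1β by 2.60 ± 0.28 and fell at 10 µM CDD-2728 by 0.54 ± 0.20 on the log2 scale (edgeR, adjusted p = 0.0438). IFI6, a membrane protein that limits viral replication, was at 38.03 and 47.7 CPM in vehicle, 74.97 and 83.8 with IL1β alone, 108 and 96.1 at 1 µM CDD-2728, 64.3 and 76.2 at 10 µM and 151 and 126 under CDD-3013, and rose with CDD-3013 by 0.80 ± 0.12. IFI35 also rose at 1 µM of both compounds (log2 0.36 with CDD-2728 and 0.70 with CDD-3013). IFI27 and the receptor transporter RTP4 stayed between 0.323 and 2.62 CPM in all libraries and were called in no inhibitor arm. LGALS3BP, a secreted scavenger-type glycoprotein, was at 597 and 618 CPM without IL1β, 609 and 642 with it, 659 and 641 when 1 µM CDD-2728 was added, 703 and 772 when 10 µM was added and 754 and 726 when CDD-3013 was added. It was not called with IL1β and rose slightly at 10 µM CDD-2728 (log2 0.24 ± 0.08) and with CDD-3013 (0.24 ± 0.08).

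IFIT1, MX1, MX2, IFI44L and EPSTI1 were thus called higher at 1 µM and lower at 10 µM CDD-2728, both against the same IL1β libraries. The share of all tested genes with such opposite calls was not counted, so whether it differs from that of these genes is not known. Under the other settings run, this was so for IFIT1, MX1 and MX2 alone with DESeq2, with library totals and with the replicate block. Without IL1β replicate 1 it was so for IFIT1, MX2 and OAS2, and without IL1β replicate 2 for 0 genes. Length and GC offsets added PARP14 to the 5, and a fit on only the 4 libraries compared gave IFIT1, MX1, MX2, OAS2, ISG15 and IFI44. The log2 differences between the doses, -1.13, -1.05, -1.42, -1.75 and -1.03, are given as a description, since their sign follows from the choice of these 5 by their calls in the same libraries. IFIT2, OASL, UBE2L6, HERC5 and IFITM2 were called higher at both doses, and the share of all genes called so was not counted either. Of the 16 genes lower at 10 µM, 10 of the 14 with a matched promoter held an ISRE core, as did 3 of 4 among the 7 that rose and 15 of 20 among those not called. The median change at 10 µM was -0.21 both for the 28 genes with the core and for the 10 without it.

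The upstream part of the pathway was read from a list of 42 other genes, of which 32 were tested. Most of the interferon ligand genes on this list had few or no counts at 6 h. IFNA1 was the only interferon alpha gene on it, so the others were not read. IFNB1, IFNK, IFNG and IFNL2 had no counts in any of the 10 libraries, which limits each to at most 0.138 to 0.19 CPM per library (3 counts), and over all libraries IFNA1 had 2 counts, IFNW1 1, IFNL1 3 and IFNL3 1. IFNE, the interferon epsilon of the reproductive tract, was the 1 ligand tested, with 194 counts in all. It was at 0.600 and 0.562 CPM in the vehicle libraries, 1.79 and 2.20 under IL1β, 1.13 and 1.11 with 1 µM CDD-2728, 1.60 and 1.14 with 10 µM and 0.475 and 0.506 with CDD-3013. It rose with IL1β by 1.76 ± 0.42 (edgeR, adjusted p = 0.00112). With CDD-3013 it fell, against IL1β alone, by 2.00 ± 0.47 on the log2 scale (edgeR, adjusted p = 0.000712). Its CDD-3013 libraries held 8 and 8 counts and its vehicle libraries 13 and 11. This difference from vehicle rests on few counts and was not tested. At 1 µM CDD-2728 the change of -0.82 ± 0.38 was not called.

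With IL1β, 19 of the 32 were called higher and 1 lower, beside 17.6% and 15% of all genes, with a median log2 change of 0.49. Of 6 receptor genes 4 rose, among them IFNGR1, a chain of the receptor for interferon gamma, at 25.98 and 28.7 CPM in vehicle, 57.9 and 65.1 with IL1β alone, 88.6 and 90.99 at 1 µM CDD-2728, 82.6 and 102 at 10 µM and 91.8 and 102 under CDD-3013. IFNGR1 was the 1 receptor gene called higher in all 3 inhibitor arms (log2 0.55, 0.59 and 0.66). STAT2 was called in none of the inhibitor arms.

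The interferon regulatory factors, which bind the ISRE and related letters, did not move as 1 group. IRF1 was at 13.98 and 15.2 CPM without IL1β, 33.9 and 39.3 with it, 38.3 and 42.9 when 1 µM CDD-2728 was added, 95.9 and 90.6 when 10 µM was added and 50.3 and 49.97 when CDD-3013 was added. It rose with IL1β by 1.32 ± 0.11 and again at 10 µM CDD-2728 by 1.35 ± 0.10 (edgeR, adjusted p = 9.99e-11), with both 10 µM libraries above all others. IRF3, which acts downstream of nucleic acid sensors, was at 73.3 and 79.5 CPM in the vehicle libraries, 76.5 and 77.2 under IL1β, 78.2 and 80.6 with 1 µM CDD-2728, 53.6 and 55.8 with 10 µM and 106 and 113 with CDD-3013. It was not called with IL1β (log2 0.01), fell at 10 µM CDD-2728 (-0.49 ± 0.09) and rose with CDD-3013 (0.51 ± 0.09). IRF7, the factor that amplifies interferon production, rose with IL1β (0.90) and in 2 of the arms, by 0.24 ± 0.09 at 10 µM CDD-2728 and 0.51 ± 0.09 with CDD-3013.

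IKBKE, a kinase that phosphorylates IRF3, was at 14.8 and 15.9 CPM in vehicle, 41.7 and 42.6 with IL1β alone, 50.5 and 45.3 at 1 µM CDD-2728, 32.6 and 30.2 at 10 µM and 59.7 and 58.1 under CDD-3013. It rose with IL1β (1.46 ± 0.11), fell at 10 µM CDD-2728 (-0.43 ± 0.10, adjusted p = 0.000866 in edgeR) and rose with CDD-3013 (0.48 ± 0.10). The feedback inhibitor SOCS3 was at 48.9 and 45.5 CPM in the vehicle libraries, 115 and 125 under IL1β, 213 and 203 with 1 µM CDD-2728, 482 and 522 with 10 µM and 283 and 286 with CDD-3013. It rose in every comparison with IL1β alone, by 0.80 at 1 µM, 2.07 at 10 µM CDD-2728 and 1.24 with CDD-3013. SOCS1, which blocks the receptor-bound kinases, rose with IL1β (2.11 ± 0.20) and at 10 µM (0.70 ± 0.15), but not beyond the test at 1 µM CDD-2728 (0.05). Of the 32, 4 were called higher and 0 lower at 1 µM CDD-2728, where 2.03% and 2.57% of all genes were called. At 10 µM the counts were 10 and 3, beside 15.6% and 15.9%, and with CDD-3013 they were 13 and 4, beside 19% and 17.3%. The shares of the 32 called lower were below those of all genes. Median log2 changes were 0.05, 0.12 and 0.10.

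**Figure D4:**
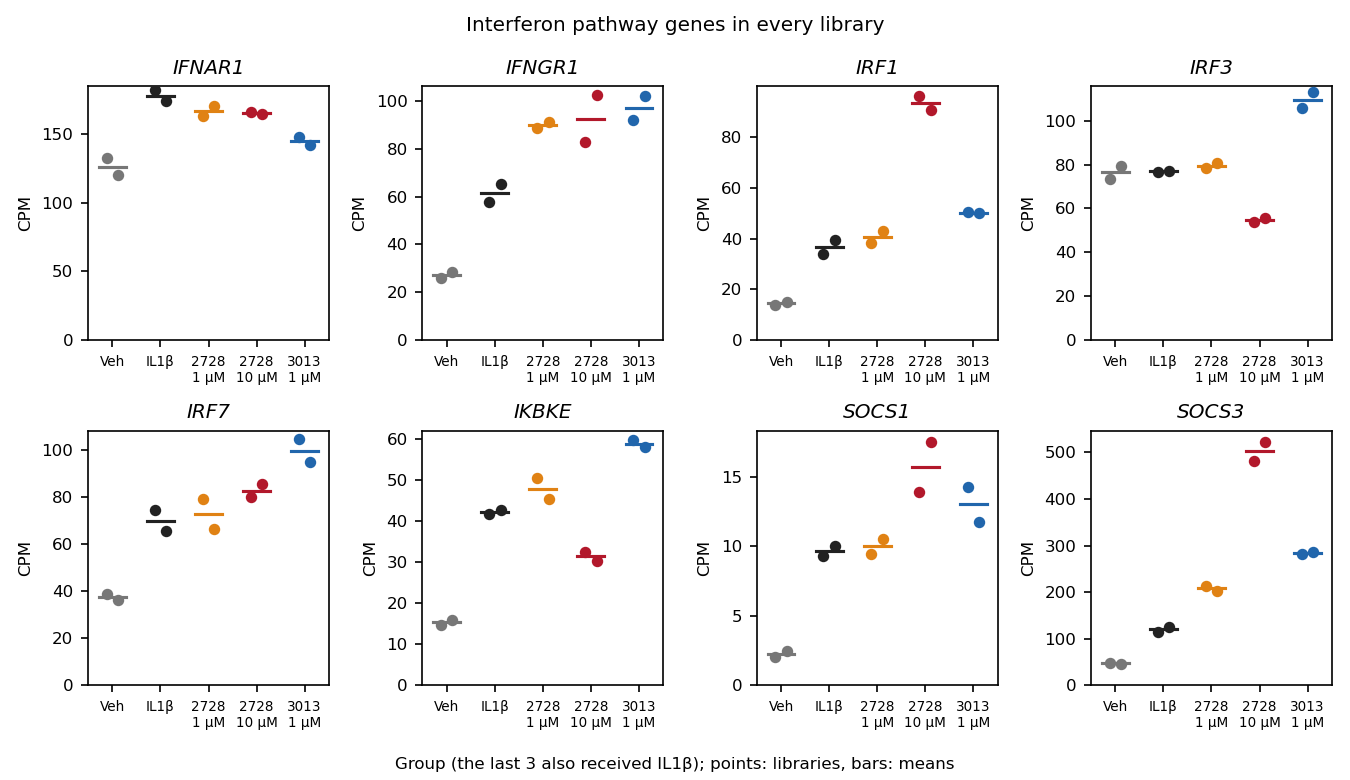
Level in CPM (vertical axes, starting at 0) of 8 genes of the interferon pathway in every library; points are libraries and bars are means of 2. IKBKE is lower at 10 µM than at 1 µM CDD-2728, while IRF1 and SOCS3 are highest at 10 µM, and IRF3 is lowest at 10 µM and highest with CDD-3013.

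CDD-3013 and CDD-2728 were compared at the matched dose of 1 µM and the matched time of 6 h, as 1 pair of compounds. Of the 45 genes, 8 were called higher with CDD-3013 and 3 lower, where 9.85% and 8.01% of all genes were called, and the median log2 difference was -0.05 beside 0.00317 for all genes. Higher were ISG15, UBE2L6, IFITM1, IFITM2, IFITM3, BST2, IFI6 and IFI35. Lower were EIF2AK2, PARP14 and DTX3L. Scaling by library totals gave 7 higher and 5 lower, where 6.57% and 12.5% of all genes were called. At an unadjusted p under 0.05 there were 10 higher and 6 lower. The log2 difference was 0.56 ± 0.17 for IFITM1 (edgeR, adjusted p = 0.0359), 0.44 ± 0.12 for ISG15, 0.44 ± 0.12 for IFI6 and -0.39 ± 0.08 for PARP14 (adjusted p = 0.00228). Without CDD-2728 1 µM replicate 2 the counts were 0 higher and 1 lower, where 1.91% and 2.03% of all genes were called. Without CDD-3013 replicate 1 they were 4 and 6 (8.21% and 4.89% of all genes), and without CDD-3013 replicate 2 they were 5 and 0 (3% and 2.7%).

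For the 34 genes not called, the 95% intervals of the log2 difference between the compounds ran from -0.826 to 1.3. They lay within a 2-fold difference in either direction for 33 of the 34 and within a 1.5-fold difference for 29. MX1 (0.02 ± 0.09), IFIT1 (0.06 ± 0.10) and IFIT2 (-0.03 ± 0.13) were among these. OASL did not pass the test (log2 0.41 ± 0.15, adjusted p = 0.0625 in edgeR).

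The difference between the compounds moved with transcript length. The 8 genes higher with CDD-3013 had longest annotated transcripts of 787 to 1573 bases, and the 3 lower ones of 5868 to 10042 bases. Across the 45 genes, Pearson's correlation of log2 length and log2 difference was -0.84, a description across genes that share the same 4 libraries. The same was seen in the whole transcriptome: the median log2 difference was 0.18 among the shortest tested genes (up to 2457 bases) and -0.14 among the longest (above 4427 bases), each 1 in 3 of the genes with a length. For CDD-3013 against IL1β alone those medians were 0.24 and -0.20. For CDD-2728 they were 0.07 and -0.06 at 1 µM, and 0.04 and -0.03 at 10 µM. Among the 45, the 7 genes higher at 10 µM had a median length of 2405 bases and the 16 lower 5243.5. With CDD-3013 against IL1β alone, the 27 higher had a median of 2496 bases and the 4 lower 8250.5. The correlation against IL1β alone was -0.29 at 1 µM CDD-2728, -0.44 at 10 µM and -0.66 with CDD-3013. Smooth trends over transcript length and GC content were also entered as offsets. With them, 0 of the 45 were called higher and 0 lower between the compounds (smallest adjusted p = 0.0929, edgeR). Over all genes 2.99% and 0.966% were called there. With CDD-3013 against IL1β, 29 were called higher and 1 lower, where 15.8% and 11.1% of all genes were called. With the same offsets, 23 were called higher at 1 µM CDD-2728, where 2.8% of all genes were. At 10 µM, 5 were called higher and 15 lower, beside 17% and 17.7% of all genes. Between its doses 35 were called lower, beside 16.2%.

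**Figure D5:**
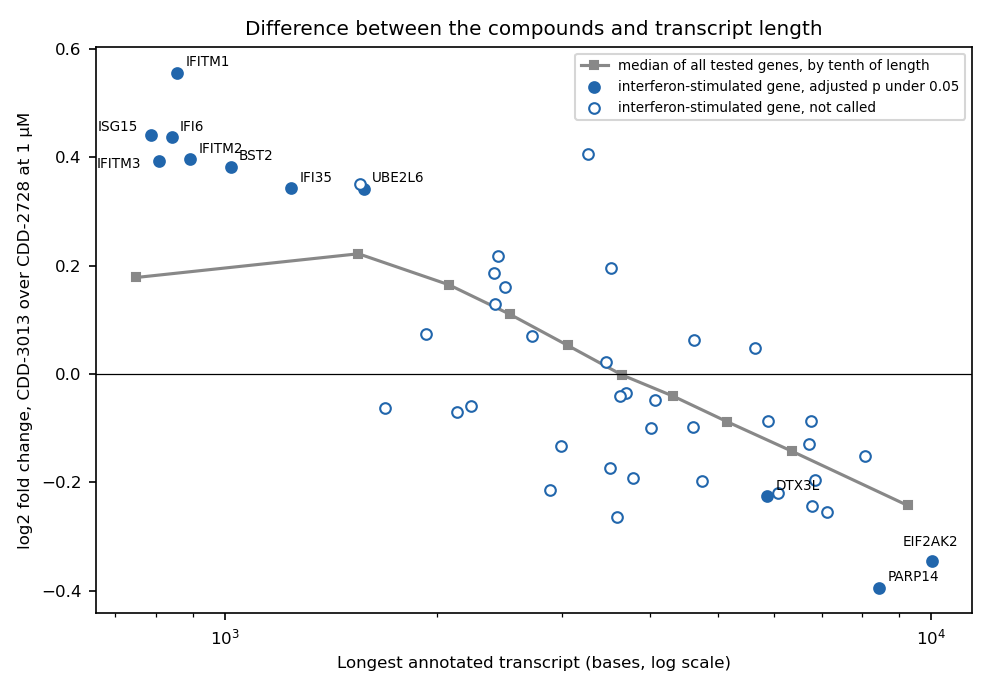
Log2 fold change of CDD-3013 over CDD-2728 at 1 µM (vertical axis) against the longest annotated transcript in bases (horizontal log axis). Circles are the 45 genes, filled where the adjusted p is under 0.05, and grey squares are medians of all tested genes in 10 bins of length; circles and squares both go from above 0 for short transcripts to below 0 for long ones.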

How the data were processed

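Poly(A) RNA sequencing of 12Z cells gave 10 libraries in 5 groups of 2. The authors deposited raw read counts per gene; fastp, STAR, featureCounts and the hg38 build are named per the submitters' processing notes, while for tool versions, annotation release and strand setting the entry is: not given in the sources used here. Counts were tested with edgeR 4.0.16 in R 4.3.3: filterByExpr with a minimum count of 10, TMM factors, robust quasi-likelihood F tests over all 10 libraries in 1 fit (5 residual degrees of freedom), and Benjamini-Hochberg adjustment over 15740 genes with a threshold of 0.05. The procedure was tested on simulated data. Transcript length, GC content and shared 75-base words came from GENCODE 29 (97.3% of tested genes had a length and GC value). DESeq2 1.42.0, other scalings and filters, a replicate block, length and GC offsets (loess span 0.3, 2 rounds) and leaving out each library were run as alternatives. The 45 genes, their roles and the lists of pathway and marker genes were chosen with earlier results of these data known. All 45 are counted; not every gene of the other lists is reported here. The 6 with the largest called change in each comparison among genes with a mean of at least 2 CPM in the higher group, and those called in opposite directions at the 2 doses of CDD-2728, are described with every library's value, and others named are described by role. Libraries of a group differed by more than sampling noise.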

Additional observations from a re-analysis of the deposited data

Results flagged for a closer look

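The effect of CDD-2728 against IL1β alone differed between the doses, with a call in each direction, for 5 genes. The share of all tested genes with such opposite calls was not counted, so none can be set beside these 5. The log2 difference of 10 µM from 1 µM was -1.13 for IFIT1, -1.05 for MX1, -1.42 for MX2, -1.75 for IFI44L and -1.03 for EPSTI1. In each of the 5 both 10 µM libraries lay below both 1 µM libraries. IFIT1 and MX1 encode RNA-binding and GTPase effectors of the antiviral state, and MX2 is the relative of MX1 that acts on retroviral capsids. The sign of these differences follows from choosing the genes by their calls in the same libraries, so they are a description and no separate support. The 2 calls of each gene share the IL1β libraries, and without IL1β replicate 2 none of the 5 kept both. Calls were lost under some alternatives for each of the 5: at 1 µM for MX1, IFI44L and EPSTI1, and at 10 µM for IFIT1, MX2 and IFI44L.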

How the results depend on the processing

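Over the 48 gene-level calls, 572 alternatives were run: 528 kept direction and call, 44 kept direction and lost the call, and 0 reversed. These 48 were picked by their calls in the main fit, most as the 6 largest of a comparison. How many were kept therefore describes them and not all calls on the 45 genes. With length and GC offsets 6 calls were lost, which were all those described between the compounds. Where a count moved, the cause was not tested, unless fewer libraries or genes entered. Library totals in place of TMM gave 1 lower with IL1β, 2 higher from 1 to 10 µM CDD-2728, 5 lower with CDD-3013 against CDD-2728, and 1 lower with IL1β and 10 µM CDD-2728 against vehicle. Their all-gene median was -0.18 on the log2 scale with IL1β and -0.13 with IL1β and 10 µM CDD-2728 against vehicle, beside -0.01 in both with TMM. Over all genes, library totals gave 1623 higher and 4730 lower with IL1β, 3082 and 1911 at 10 µM CDD-2728, 2285 and 3548 with CDD-3013, 2826 and 1389 between the doses, 1034 and 1965 between the compounds, and 2107 and 4125 for IL1β with 10 µM CDD-2728 against vehicle. Length and GC offsets gave 1 lower with CDD-3013 against IL1β, where 11.1% of all genes were called lower. Between the compounds they gave 0 higher and 0 lower, and 471 higher and 152 lower over all genes. The strict filter, at 5 CPM in 2 libraries, gave 1 higher between the doses, beside 17.4% of all genes. Leaving out 1 library at a time gave 8 to 22 higher at 1 µM CDD-2728, 4 to 6 higher and 10 to 13 lower at 10 µM, 0 to 6 lower with CDD-3013, 0 to 2 higher between the doses, and 0 to 8 higher and 0 to 6 lower between the compounds. The lone library left in a group was then assumed to vary like the other groups. The median change of the 45 moved beyond the spread in 16 of 84 alternatives, and that between the compounds turned from -0.05 to 0.03 with the offsets, 0.07 without CDD-3013 replicate 2 and 0.01 without CDD-2728 1 µM replicate 1.

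The replicate numbers gave no pairing: deviations of same-numbered libraries correlated at -0.114 to 0.0548 over the 10 pairs of groups. With the replicate block, 17 were called higher at 1 µM CDD-2728 (1.82% of all genes) and 34 lower between the doses (13%). Between the compounds 8 were called higher and 2 lower, beside 9.02% and 7.46% of all genes. At this depth RSAD2, CMPK2, IFI27 and RTP4, with few counts per library, carry wide errors, and 2 libraries a group limit every comparison.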
